A study of Arabidopsis thaliana with 2 samples.

Results

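RBCS1B, RPT6A and AT4G30910 are Arabidopsis thaliana genes that each lie beside a near-identical copy. They were taken as all entries of these genes in the deposited list of mutually exclusive exons, which gave 3 of the 281 genes and 6 of the 343 events in all the deposited lists. The genes were selected on the reads of these events in both genotypes, and every event was listed because its balance of reads differed in the authors' test, so reads and balance are described here without a test. RNA came from cotyledons, the seed leaves, of the lefko mutant and of its wild type, both of the Col-0 ecotype, grown on sucrose-containing medium in long days. The mutant is lefko1 in the column names and the protocol but lefko2 in its title, and the source label says seeds where the protocol says cotyledons. The labels give 1 sample per genotype and neither the gene affected in lefko nor the age of the plants, and the tissue was not checked against marker genes, since the lists hold selected splicing events only. Every event comes with 3 count sets for lefko and 3 for wild type. The labels do not say whether these are separate plants, libraries or runs. SDs below, and the SEs of differences computed from them, therefore measure only the spread between sets and not the uncertainty of an effect of genotype.

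Tandem duplication leaves copies of a gene side by side that begin as identical sequences and drift apart base by base. RBCS genes encode the small subunit of Rubisco, the enzyme that fixes carbon dioxide in the chloroplast, and Arabidopsis has a small family of them whose mRNAs are among the most abundant of green tissue. RPT6A encodes an ATPase subunit of the regulatory particle of the 26S proteasome, which unfolds tagged proteins before they are degraded, and its neighbour AT5G20000 is known as RPT6B. AT4G30910 encodes a protein of the leucyl aminopeptidase family, enzymes that remove amino acids from the start of peptides, and its neighbour is LAP2, leucyl aminopeptidase 2.

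In a mutually exclusive exon event, reads are counted for 1 of 2 alternative exons as inclusion reads and for the other as skipping reads. In all 6 events the alternative exons were coding exons of 2 different genes, at the same place in each copy. On chromosome 5 (TAIR10.1 coordinates throughout), RBCS1B (15383167 to 15385320) follows RBCS2B (15380907 to 15382071) after 1095 bases, both on the minus strand. RPT6A (chromosome 5, 6751798 to 6755315, plus strand) lies 1317 bases before AT5G20000 (6756633 to 6759800). AT4G30910 (chromosome 4, 15042357 to 15045344) and LAP2 (15046457 to 15049438) are on the minus strand, 1112 bases apart. The RBCS pair was listed at coding exon 2 of 3. RPT6A was listed at coding exons 5 and 6 of 9, called event 1 and event 2, and AT4G30910 at coding exons 3, 4 and 5 of 10, called events 1, 2 and 3.

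**Figure D1:**
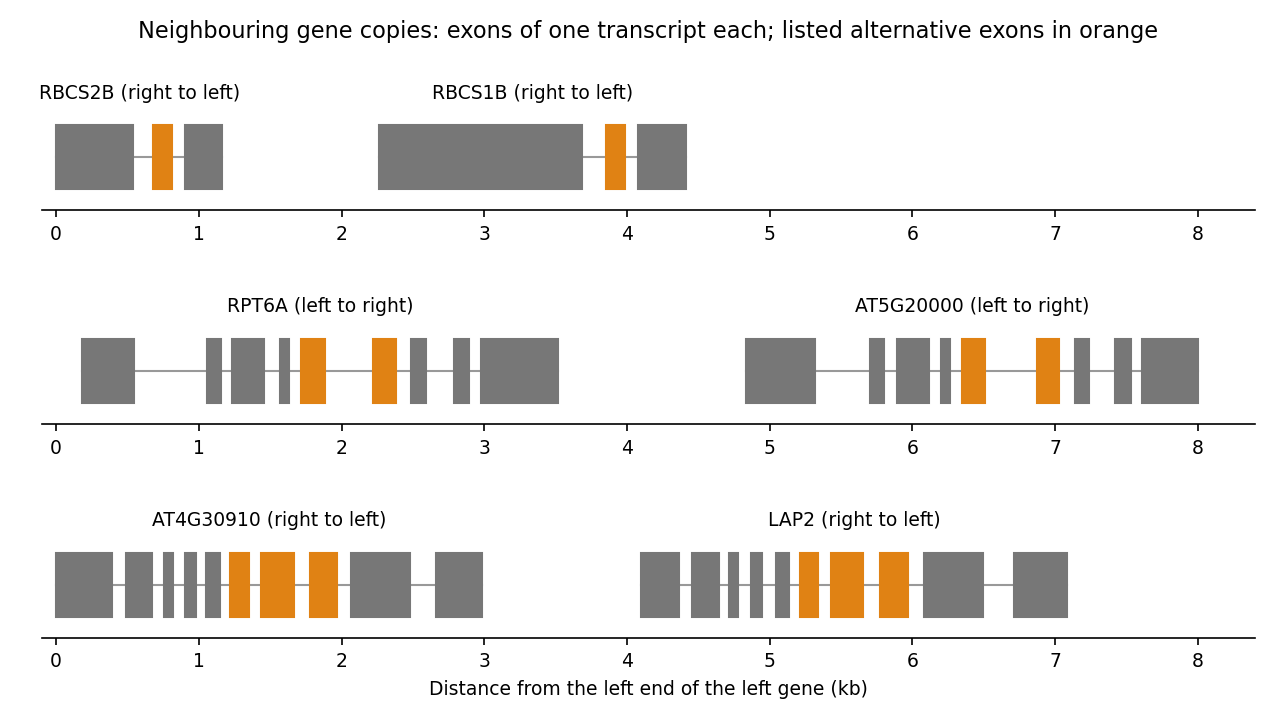
The neighbouring gene copies drawn to scale, with distance from the left end of the left gene in kb on the x axis and the direction of transcription beside each name. Boxes are the exons of 1 annotated transcript per gene and orange boxes are the alternative exons of the listed events, which occupy matching places in both copies.

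Each of the alternative exons was tied by the event's layout to a neighbour in its own gene and to a neighbour in the other copy. The junctions within a gene spanned 75 to 358 nt and all were annotated. The junctions between the copies spanned 3267 to 4989 nt and none was in an annotated transcript. The events therefore set reads at matching exons of both copies against each other. Which exon stands for inclusion is not marked in the event list, and how reads matching both copies were counted is not given in the sources used here, so no read count below is assigned to a copy. A gene name beside read counts or shares stands for its event, which holds exons of both copies, and not for expression of that gene. The column layout resembles that of the program rMATS, where the inclusion form holds the exon with the higher coordinates on the minus strand and the one with the lower coordinates on the plus strand. Under that convention inclusion would stand for RBCS1B, RPT6A and LAP2, but the sources used here name no such program.

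The exon pairs are shown because their few differences are what can separate reads within the exon of one copy from those of the other. A read that crosses a junction also carries bases of a flanking exon, which can differ between the copies as well. The sequences are the coding strand from RefSeq (TAIR10.1), and capitals mark the bases that differ between the copies. The RBCS exons differ at 3 of 135 bases, RBCS2B at chr5:15381583-15381717 and RBCS1B at chr5:15384761-15384895, both on the minus strand.
RBCS2B: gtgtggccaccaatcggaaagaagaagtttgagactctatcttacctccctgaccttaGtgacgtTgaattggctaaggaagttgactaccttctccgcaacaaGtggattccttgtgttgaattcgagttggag
RBCS1B: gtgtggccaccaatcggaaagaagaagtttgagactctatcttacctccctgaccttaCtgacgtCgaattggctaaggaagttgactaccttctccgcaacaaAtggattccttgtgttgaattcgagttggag
The exons of RPT6A event 1 (chr5:6753516-6753679 and chr5:6758147-6758310, plus strand) differ at 5 of 164 bases.
RPT6A: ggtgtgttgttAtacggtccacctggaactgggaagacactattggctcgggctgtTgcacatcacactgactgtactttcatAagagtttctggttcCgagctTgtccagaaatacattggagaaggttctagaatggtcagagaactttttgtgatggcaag
AT5G20000: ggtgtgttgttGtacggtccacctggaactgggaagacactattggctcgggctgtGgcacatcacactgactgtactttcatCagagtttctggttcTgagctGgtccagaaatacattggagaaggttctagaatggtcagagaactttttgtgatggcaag
The exons of AT4G30910 event 3 (chr4:15043579-15043705 and chr4:15047571-15047697, minus strand) were the least alike of the 6 pairs, with 11 of 127 bases different.
AT4G30910: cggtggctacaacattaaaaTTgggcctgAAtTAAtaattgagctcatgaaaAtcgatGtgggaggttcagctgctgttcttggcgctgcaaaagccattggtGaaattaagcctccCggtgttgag
LAP2: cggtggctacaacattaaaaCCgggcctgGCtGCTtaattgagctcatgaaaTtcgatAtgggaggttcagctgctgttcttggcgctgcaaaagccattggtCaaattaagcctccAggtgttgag

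The paired exons had the same length in all 6 events, and their identity ran from 91.3% in AT4G30910 event 3 to 97.8% in RBCS1B. Event 2 of RPT6A had 8 differences in 157 bases, and in neither RPT6A event did a difference change an amino acid. All 5 differences of RPT6A event 1 and 7 of the 8 of event 2 fell at the third base of a codon. In the RBCS exon 1 of 45 codons gave another amino acid. The aminopeptidase exons differed at 15 of 195 bases in event 1 and 8 of 226 in event 2, and 6 of 64, 3 of 74 and 7 of 42 whole codons gave another amino acid in events 1, 2 and 3. Over the whole predicted protein, by global alignment of the translated coding sequences, RBCS1B and RBCS2B were 97.8% identical, RPT6A and AT5G20000 96.7%, and AT4G30910 and LAP2 90.9%.

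The longest stretch shared without a difference was 58 bases in the RBCS exons, 59 and 45 in RPT6A events 1 and 2, and 35, 59 and 44 in AT4G30910 events 1, 2 and 3. Of the windows of 50 bases that fit in the exon, 9 of 86 were shared by both RBCS copies, 10 of 115 by both copies in RPT6A event 1 and 10 of 177 in AT4G30910 event 2. The other 3 pairs shared none, and no pair shared a window of 100 bases. Read length was not among the labels.

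The RBCS family has further members whose matching exon is nearly the same. In RBCS3B, the next gene along the chromosome, exon 2 differed from that of RBCS2B at 3 bases and from that of RBCS1B at 4. It shared 17 of 86 windows of 50 bases with RBCS2B and 0 with RBCS1B. RBCS1A, on chromosome 1, differed from RBCS1B at 11 bases and from RBCS2B at 12, and shared no window of 50 bases with either.

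**Figure D2:**
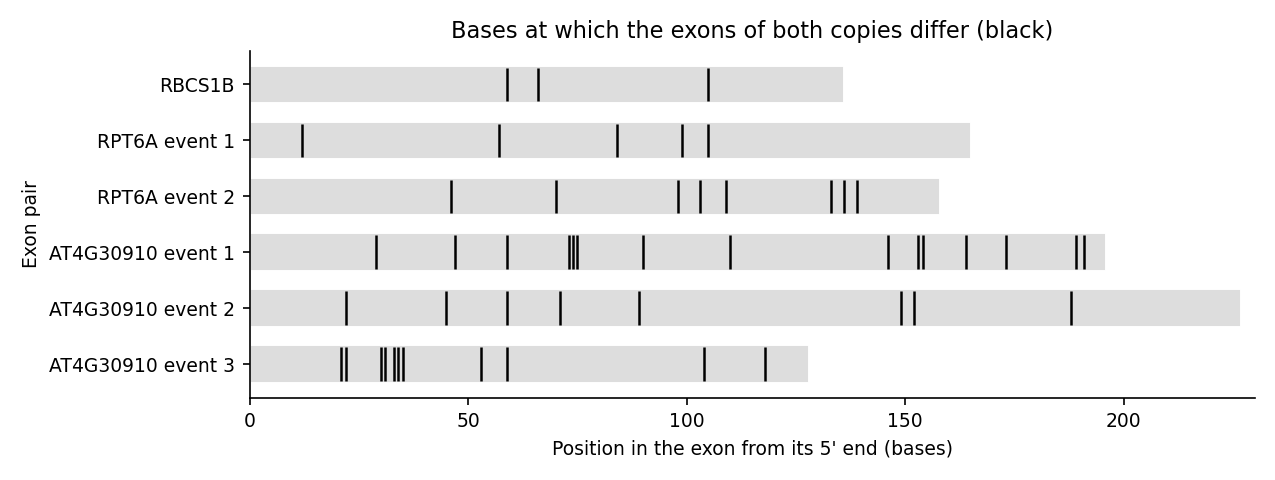
Position of each base that differs between the paired exons, counted from the exon's 5' end on the x axis, with 1 row per event and grey bars as long as the exon. The RBCS pair has 3 differences and AT4G30910 event 1 has 15.

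Other exons of the same genes were as alike without being listed. In RPT6A 5 further internal coding exons had identities of 94.9% to 98.4% with AT5G20000, against 94.9% and 97.0% in the listed pair of exons. In AT4G30910 5 further internal exons had identities of 85.2% to 95.8% with LAP2, against 91.3% to 96.5% in the 3 listed. RBCS1B has no other internal exon. The lists hold only events past the authors' threshold, so an exon that is absent from them may have been unchanged or not tested.

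Together the listed events held 166819 to 178604 reads per count set in lefko and 168946 to 187225 in wild type, which is not the depth of the libraries. All 6 events had at least 20 reads in every set. The share of inclusion reads, inclusion over inclusion plus skipping, was higher in lefko in 1 of the 6 events and lower in 5, while over all 343 listed events it was higher in 77.8% and lower in 22.2%. Among the 9 events of mutually exclusive exons, which include these 6, it was lower in 77.8%. Of the others, CAC1 and AT1G66880 were lower and AT5G02080 higher. The listed events are of several classes, in which inclusion does not mean the same thing. Higher and lower follow the column labels here and below, and with inclusion and skipping exchanged the 6 events would be 5 higher and 1 lower. In all 6 the range of the lefko sets did not overlap that of the wild-type sets, which held for 91.8% of all listed events. The lists were made by selecting on this difference, so nothing is read from these counts.

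The RBCS1B event, which pools reads at exons of RBCS1B and RBCS2B, held far fewer reads in lefko than in wild type. Both kinds of read were lower, skipping reads by the greater factor, and which copy accounts for this is not settled. In lefko the event held 5015, 4867 and 4636 inclusion reads and 1810, 1654 and 722 skipping reads. In wild type it held 23260, 23969 and 19964 inclusion reads and 18510, 19428 and 17233 skipping reads. Every lefko value was below every wild-type value of its kind, and the third lefko set had fewer skipping reads than the other two at a similar number of inclusion reads.

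Summed over sets, the RBCS1B event had 14518 inclusion reads in lefko and 67193 in wild type, 4.63-fold lower in lefko. It had 4186 skipping reads in lefko and 55171 in wild type, 13.2-fold lower. The event took 3.21% to 3.87% of all listed reads in the lefko sets and 22.0% to 24.8% in the wild-type sets. In bulk RNA, fewer cells of a type and less RNA per cell cannot be told apart.

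The inclusion share of RBCS1B was 73.5%, 74.6% and 86.5% in the lefko sets and 55.7%, 55.2% and 53.7% in the wild-type sets. The means were 78.2% ± 7.22 in lefko and 54.9% ± 1.06 in wild type (SD, 3 sets), a difference of 23.4 points (SE 4.21). Without the third lefko set the difference was 19.2 points. Over summed reads the share was 77.6% in lefko (exact 95% interval 77.0% to 78.2%) and 54.9% in wild type (54.6% to 55.2%). These intervals cover counting error only, and the sets within each genotype differed by more than that (chi-square 345 in lefko and 35.0 in wild type, p = 1.02e-75 and 2.47e-08). The authors' deposited table gives this event an FDR, an adjusted p, of 4.91e-11.

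In RPT6A the inclusion share as labelled was lower in lefko, and whether this is the opposite of RBCS1B in terms of left and right copy is not settled, since the exon counted as inclusion is unmarked. Skipping reads were more numerous in lefko in both of its events, by raw ratios of 1.73 and 1.76, and inclusion reads were at 0.849 and 0.979 of wild type. Event 1 held 831, 854 and 841 inclusion reads in lefko and 1123, 945 and 908 in wild type. Its skipping reads were 858, 888 and 957 in lefko and 571, 586 and 401 in wild type. The skipping reads of the genotypes did not overlap, and the inclusion reads of lefko were all below those of wild type by a smaller factor.

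The inclusion share of RPT6A event 1 was 49.2%, 49.0% and 46.8% in the lefko sets and 66.3%, 61.7% and 69.4% in the wild-type sets. This gave 48.3% ± 1.35 in lefko and 65.8% ± 3.85 in wild type, a difference of -17.5 points (SE 2.35). Inclusion and skipping reads were nearly equal in lefko, while inclusion reads were in the majority in wild type. Its FDR is 9.47e-07 in the authors' deposited table.

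RPT6A event 2, at the next coding exon, held 688, 490 and 540 inclusion reads in lefko and 578, 647 and 530 in wild type. It held 1066, 901 and 954 skipping reads in lefko and 593, 586 and 481 in wild type. Here the inclusion reads of the genotypes overlapped, and the skipping reads did not. The share was 36.9% ± 2.09 in lefko and 51.4% ± 1.78 in wild type. The difference was -14.6 points (SE 1.59), and the authors' deposited table lists an FDR of 0.000964. The wild-type share was thus 65.8% at one exon and 51.4% at the next of the same pair of genes, so that the balance read from one exon was not that read from its neighbour. The events are not independent, since an alternative exon of each is a flanking exon of the other.

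AT4G30910 was listed at 3 exons in a row, and at all 3 the inclusion share as labelled was lower in lefko. Event 1 held 1876, 2033 and 1763 inclusion reads in lefko and 2085, 1813 and 1810 in wild type, which overlapped. Its skipping reads were 1807, 1751 and 1642 in lefko and 870, 776 and 831 in wild type, with every lefko set above every wild-type set. The inclusion share was 50.9%, 53.7% and 51.8% in lefko and 70.6%, 70.0% and 68.5% in wild type. The difference was -17.6 points (SE 1.02), and the FDR in the authors' deposited table is 8.08e-08.

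AT4G30910 event 2 held 2543, 2434 and 2507 inclusion reads in lefko and 2767, 2240 and 2462 in wild type. Its skipping reads were 1432, 1462 and 1340 in lefko and 750, 582 and 701 in wild type. Again the inclusion reads overlapped and the skipping reads did not. The share was 63.9% ± 1.35 in lefko and 78.6% ± 0.770 in wild type, which differ by -14.8 points (SE 0.897), with an FDR of 1.25e-06 in the authors' deposited table.

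AT4G30910 event 3 held 749, 789 and 954 inclusion reads in lefko and 1059, 681 and 942 in wild type. Its skipping reads were 531, 544 and 542 in lefko and 304, 274 and 268 in wild type, apart in the same way. The share was 60.5% ± 2.86 in lefko and 75.6% ± 3.73 in wild type, which differ by -15.1 points (SE 2.71), with an FDR of 1.82e-05 in the authors' deposited table. In wild type the 3 exons gave shares of 69.7%, 78.6% and 75.6%, and in lefko 52.1%, 63.9% and 60.5%, so the order of the exons was the same in both genotypes. These events too take flanking exons from one another.

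**Figure D3:**
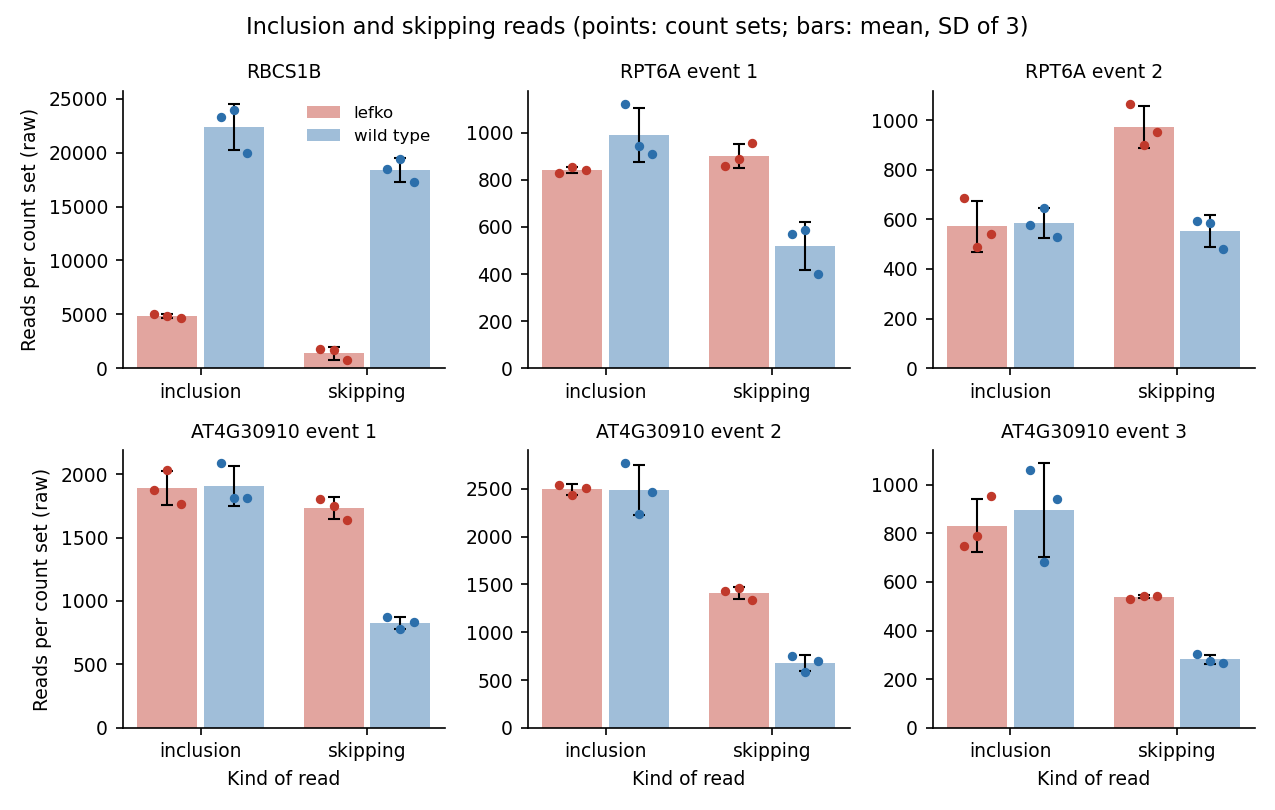
Raw inclusion and skipping reads per count set (y axis) in each of the 6 events, with lefko in red on the left and wild type in blue on the right of each pair. Points are count sets, bars are means and error bars are SDs of 3. The RBCS1B event is lower in lefko for both kinds of read, and in the other 5 events the skipping reads of lefko lie above those of wild type.

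The number of skipping reads per inclusion read needs no scaling between genotypes. Summed over sets it was 0.917 in lefko and 0.434 in wild type for AT4G30910 event 1, a ratio of 2.11. The ratio of lefko to wild type was 2.08 and 2.06 in events 2 and 3 of AT4G30910, and 2.04 and 1.80 in events 1 and 2 of RPT6A. It was 0.351 in RBCS1B, with 0.288 skipping reads per inclusion read in lefko and 0.821 in wild type. Turned round, as inclusion reads per skipping read, the ratio was 2.85 in RBCS1B and 0.473 to 0.556 in the other 5. The 5 events of the proteasome and aminopeptidase pairs as labelled thus lay between 1.80 and 2.11, with exon lengths of 127 to 226 bases and identities of 91.3% to 97.0%. They share flanking exons within each pair of genes, so they are not separate cases. The range is not particular to these pairs. In the other events of the same list the ratio was 2.23 in CAC1, 2.12 in AT1G66880 and, from few reads, 0.181 in AT5G02080.

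**Figure D4:**
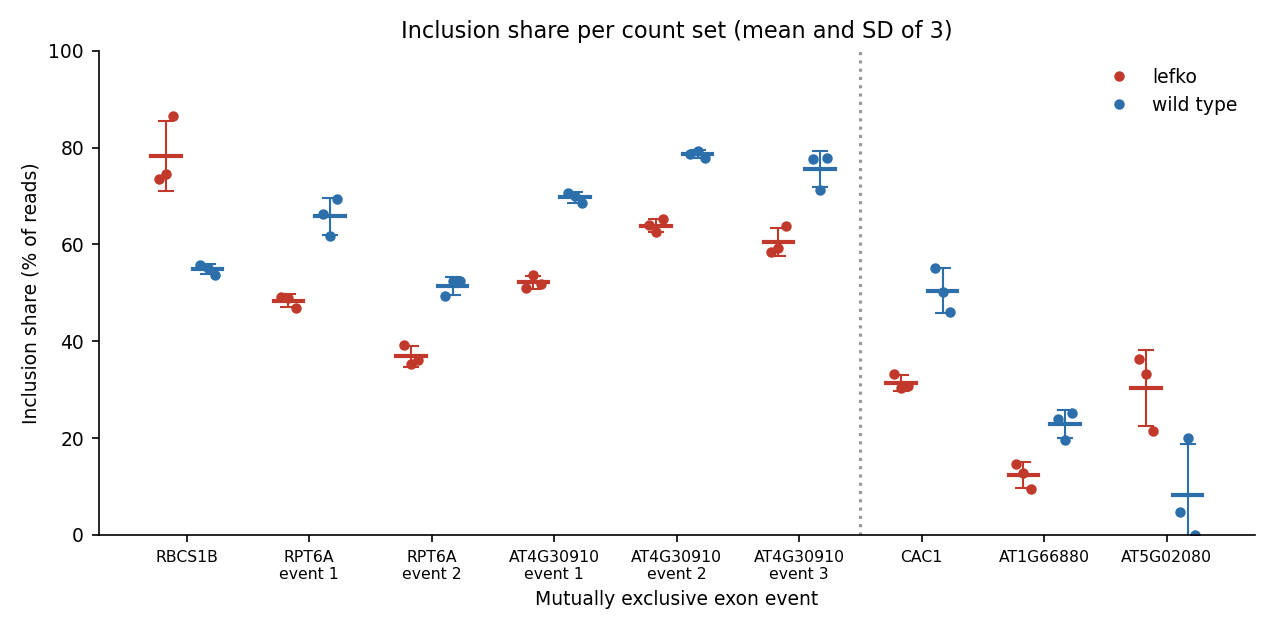
Inclusion share in percent of reads (y axis) for the 9 events of mutually exclusive exons, with lefko in red on the left of each pair and wild type in blue on the right. Points are count sets, with the mean and SD of 3. Left of the dotted line are the 6 events of RBCS1B, RPT6A and AT4G30910, of which RBCS1B alone is higher in lefko as the columns are labelled.

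To set reads of the genotypes side by side, each count was also divided by the sum of reads over the 337 other listed events of its set. That sum was 1.23 times higher in lefko, and the median raw ratio of an other event was 1.40. On this scale the total reads of the RBCS1B event, with both copies pooled, were 0.124 of the wild-type level. They were 4000 ± 381 per 100000 other reads in lefko and 32277 ± 2763 in wild type. None of the 239 other events with at least 20 reads in every set had a lower ratio, and the next was an intron retention event of BT1 at 0.229. Among those 239 events 14.6% were at least 1.5 times lower in lefko in total reads. Their median ratio was 1.12.

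On the same scale total reads had ratios of 0.941 and 1.10 in RPT6A events 1 and 2 and of 1.08, 1.00 and 0.952 in AT4G30910 events 1, 2 and 3. Their side of 1 depended on the scaling, since all 5 lay above 1 with none (1.15 to 1.36) and below 1 when scaled by the median ratio of the other events (0.824 to 0.970). Skipping reads were 1.71, 1.70 and 1.56 times as high in lefko in AT4G30910 events 1, 2 and 3, and 1.42 and 1.43 times in RPT6A events 1 and 2. Of the 239 other events, 10.0% were at least 1.5 times higher in lefko in skipping reads, as were 3 of these 6. The 3 are the neighbouring exons of 1 gene pair, AT4G30910 and LAP2, so they are not separate cases. The count follows the column labels and the scaling, and skipping reads do not mean the same thing in the several classes of the other events. With no scaling all 5 events of RPT6A and AT4G30910 passed that level, and with the median ratio all 5 lay below it, at 1.24 to 1.4995. The share of other events was not computed on those scales. Inclusion reads had ratios of 0.808, 0.817 and 0.761 in AT4G30910 and 0.692 and 0.795 in RPT6A. With no scaling the inclusion ratios were 0.994, 1.00 and 0.929 in AT4G30910 and 0.849 and 0.979 in RPT6A, so whether inclusion reads were lower or level depends on the scale. The skipping reads were higher in lefko on either scale, with raw ratios of 1.73 to 2.10.

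As labelled and on this scale, the 5 events of RPT6A and AT4G30910 had fewer inclusion and more skipping reads in lefko, as 18 of 239 other events did. With the labels exchanged they would have more inclusion and fewer skipping reads, as 177 of 239 other events did. The RBCS1B event was lower in both kinds under either labelling, as were 21 of 239. Listing used these same reads, so the positions are a description.

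**Figure D5:**
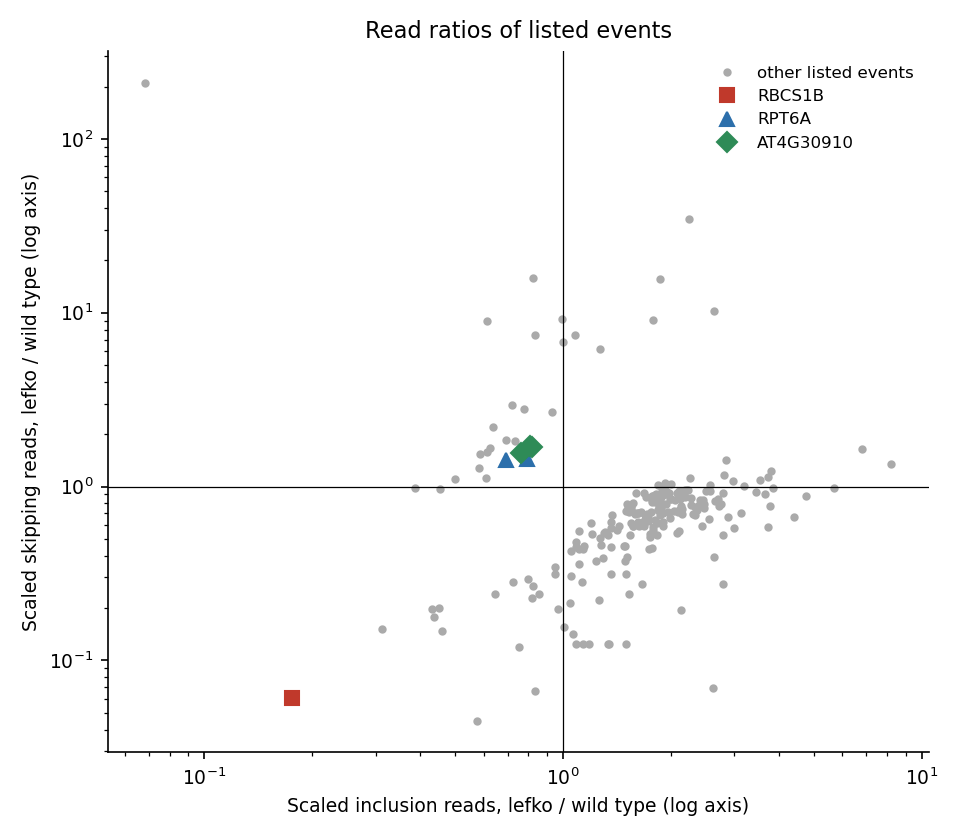
Ratio of lefko to wild type in scaled inclusion reads (x axis) and scaled skipping reads (y axis), both on log axes, for RBCS1B, RPT6A, AT4G30910 and 232 other listed events with at least 20 reads in every set (7 with a ratio of 0 or none are not drawn). RBCS1B lies at the lower left with 0.176 and 0.0611, and the other 5 events lie together above 1 on the y axis and below 1 on the x axis.

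The 3 other genes of the same list had alternative exons of unlike length and sequence. In CAC1, of plastid fatty acid synthesis, the alternative exons were 423 and 83 bases long and the longest stretch they shared was 8 bases. In AT1G66880 they were 624 and 726 bases long and shared at most 9, and in AT5G02080 86 and 52 bases with at most 5, against 35 to 59 bases in the 6 pairs of exons above. The exons of AT1G66880 and of AT5G02080 lay within 1 gene, and the flanking exons of CAC1 lay in CAC1 and its neighbour AT5G16380.

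The shares of these events also differed between genotypes, as listing required. CAC1 had 31.4% ± 1.59 in lefko and 50.5% ± 4.64 in wild type, with 2.23 times as many skipping reads per inclusion read in lefko. AT1G66880 had 12.3% ± 2.69 in lefko and 22.9% ± 2.93 in wild type, a ratio of 2.12. AT5G02080 had 30.4% ± 7.89 in lefko, from 74 reads, and 8.25% ± 10.4 in wild type, from 50 reads. The differences were -19.0 points in CAC1, -10.6 in AT1G66880 and 22.1 in AT5G02080, beside -17.6 to -14.6 points in RPT6A and AT4G30910 and 23.4 in RBCS1B. In CAC1 the raw inclusion reads were 0.613 of wild type and the raw skipping reads 1.37 times wild type, beside 0.849 to 1.00 and 1.73 to 2.10 in RPT6A and AT4G30910, a difference that was not tested.

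Each event is listed under 1 gene, and no other gene of the pathway lists used here had an event under its own name. These lists need not hold every gene of a pathway, and genes outside them were not searched. RBCS2B, AT5G20000 and LAP2 are on these lists too and supply the other exon of the 6 events. RBCS1B was the 1 listed gene of 20 of Rubisco and the Calvin cycle, a list that holds RBCS1A, RBCS2B, RBCS3B and Rubisco activase. RPT6A was the 1 listed gene of the 26 chosen for the regulatory particle of the proteasome, and AT4G30910 the 1 of the 9 aminopeptidase genes chosen. Each pathway list was drawn up to hold its member, so the 1 was fixed in advance. In all, 281 genes were listed, and their share of all annotated genes was not computed, so nothing is read from these counts. RBCS1B, RPT6A and AT4G30910 had 0 events in the lists of retained introns, alternative splice sites and skipped exons. Whether the genes of the pathway lists without an exon in these events were unchanged, or too thinly covered to be tested, cannot be read from lists of significant events.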

How the data were processed

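RNA-seq of 1 lefko and 1 wild-type sample of cotyledons was analysed from 5 deposited event tables. Per the submitters' processing notes, reads were aligned with HISAT2 2.0.4 to TAIR10. No source used here gives the event caller, its counting rule or the read length. Per the file headers, the authors deposited inclusion and skipping read counts and for each event a p-value and its FDR (p-value after adjustment), and every event is under an FDR of 0.05. Each count cell holds 3 whole-number counts joined by semicolons, read here as 3 count sets. Depth is the sum of reads over listed events. Exon starts, counted from 0 in the tables, were raised by 1 and then matched TAIR10.1 exons at all alternative exons of the 6 events.

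Shares, ratios, exact 95% intervals and chi-square tests between the sets of 1 genotype (12 tests, 8 with p under 0.05) were computed with Python 3.11.15, NumPy 2.4.6, pandas 2.3.3 and SciPy 1.17.1, exon and protein comparisons with Biopython 1.88, and plots with matplotlib 3.10.9. Calculations were tested on simulated data. No test between genotypes was run. The members and the pathway lists were chosen with earlier results of these data known. All rows of the members were named, with each neighbouring copy, the other genes of the same table and any listed gene of the pathway lists; BT1 was named after its value was seen. Alternatives were other scalings, summed shares, log2 odds with 0.5 added, exon length, leaving out each count set, an FDR of 0.01 and windows of 100 bases.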

Additional observations from a re-analysis of the deposited data

How the results depend on the processing

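The 6 share differences kept their direction with summed reads, log2 odds of inclusion and each count set left out, and moved by less than the spread between count sets with summed reads and with each set left out. Dividing reads by exon length could not change a share, since the paired exons have equal length. Leaving out a set gave 19.2 to 25.7 points in RBCS1B, -19.5 to -15.7 and -15.7 to -13.7 in RPT6A events 1 and 2, and -18.3 to -17.0, -15.4 to -14.1 and -17.3 to -14.0 in AT4G30910 events 1, 2 and 3. All 5 lower events had an FDR of at most 0.01. Ratios of reads depended on the scaling. With no scaling the total read ratio was 0.153 in RBCS1B, 1.15 and 1.36 in RPT6A, and 1.33, 1.23 and 1.16 in AT4G30910, in event order. Scaled by all listed events, in which RBCS1B weighs heavily, they were 0.155, 1.18, 1.38, 1.35, 1.26 and 1.19 in the same order. Scaled by the median ratio, 5 events lay below 1, at 0.824 and 0.970 in RPT6A and 0.949, 0.881 and 0.832 in AT4G30910, so that RPT6A event 2 and AT4G30910 events 1 and 2 crossed from above 1. RPT6A event 1 and AT4G30910 event 3 crossed from below 1 with no scaling and with all listed events. Leaving out a set gave total ratios of 0.119 to 0.130 in RBCS1B, 0.895 to 0.967 and 1.04 to 1.17 in RPT6A, and 1.07 to 1.09, 0.967 to 1.03 and 0.883 to 0.998 in AT4G30910. Inclusion ratios with no scaling were 0.216 in RBCS1B, 0.849 in RPT6A event 1 and 0.994 in AT4G30910 event 1, and AT4G30910 event 2 turned to 1.002. With the median ratio they were 0.154 in RBCS1B, 0.606 in RPT6A event 1, and 0.710 and 0.716 in AT4G30910 events 1 and 2. Skipping ratios with no scaling were 1.76 in RPT6A event 2 and 2.10, 2.08 and 1.91 in AT4G30910, and with the median ratio 1.50, 1.49 and 1.37 in AT4G30910. These shifts follow from the scaling factors themselves. With windows of 100 bases the shared percentage was 0 in RBCS1B, RPT6A event 1 and AT4G30910 event 2, against 10.5%, 8.70% and 5.65% with 50 bases. No paired analysis was possible because the labels give 1 sample per genotype and no replicate numbers.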

Other observations

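In the second wild-type count set, the skipping reads of CAC1 and of both RPT6A events were the same number, 586. In the other wild-type sets the 3 events held 3 different numbers each. The match was noticed while reading the counts and was not tested.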
